A study of Mus musculus with 18 samples.

Results

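The genes described here are 10 genes of microbial sensing, 9 receptors and 1 adaptor: the Toll-like receptors Tlr1, Tlr2, Tlr3, Tlr4, Tlr5, Tlr7 and Tlr9, the adaptor Myd88, and the cytosolic receptors Nod1 and Nod2. They were taken by symbol, and all 10 were measured among the 16358 genes of the arrays. The samples were 18 Affymetrix exon arrays of mouse intestinal epithelium, from 6 female Cyp1a1-H2B-YFP mice aged 99 to 109 days. In these mice a histone fused to YFP is driven by the Cyp1a1 promoter, which βNF (beta-naphthoflavone) turns on for a time, and all mice were taken 10 days after that induction. Each mouse gave 3 sorted populations of 30000 CD24-positive cells, so there are 6 arrays per population. YFP-LRC cells were negative for the lectin UEA-1 and had kept the YFP label. Paneth cells were positive for UEA-1. LCC cells were negative for UEA-1 and for YFP. No uninduced mouse is among the samples, so induction is shared by every group. The YFP-LRC array of mouse 6 carries a different litter label (B4346) from its Paneth and LCC arrays (B4364).

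Toll-like receptors read conserved microbial molecules. Tlr1, Tlr2, Tlr4 and Tlr5 act at the cell surface, on lipoproteins, lipopolysaccharide and flagellin, while Tlr3, Tlr7 and Tlr9 act in endosomes on nucleic acids. Most of them signal through Myd88 to NF-kB, and Tlr3 signals through the adaptor Ticam1 instead. Nod1 and Nod2 sense peptidoglycan fragments in the cytosol and signal through the kinase Ripk2. In the gut, Nod2 is known for its expression in Paneth cells, where it bears on antimicrobial secretion.

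Of the 10 genes, 2 differed between any 2 populations by limma's test at an adjusted p under 0.05, both between Paneth and LCC cells. Tlr3, the receptor for double-stranded RNA, was higher in Paneth cells, by 1.01 ± 0.33 (log2 difference ± SE, n = 6 arrays each; adjusted p = 0.0432). Tlr7, the receptor for single-stranded RNA, had a signal lower by 0.89 ± 0.21 in Paneth cells (adjusted p = 0.00984). That signal was dim, with a mean of -2.24 against the array median, and its brightest probe set went the other way (0.36). A fall of Tlr7 RNA is therefore not shown. In that comparison 12% of all genes were called higher and 2.53% lower, and 1 gene of 10 in each direction is not read as a result about the members as a group. There, 4 of 10 had an unadjusted p under 0.05, against 30.2% of all genes. Against LCC, 0 of the 10 were called in YFP-LRC, where 6.33% of all genes were called higher and 0.917% lower, and 3 of 10 had an unadjusted p under 0.05, against 24.8% of all genes. Against Paneth, 0 of the 10 were called in YFP-LRC, where 0.055% of all genes were called higher and 0.3% lower, and 1 of 10 had an unadjusted p under 0.05, against 5.52% of all genes. In all 30 comparisons of a member the arrays of the populations overlapped. Of all genes, 1.94% lay wholly higher and 0.373% wholly lower in YFP-LRC than in LCC, 0.183% and 0.605% in YFP-LRC than in Paneth, and 3.58% and 0.801% in Paneth than in LCC. In a sorted population, fewer cells that express a gene and less RNA per cell cannot be told apart.

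**Figure D1:**
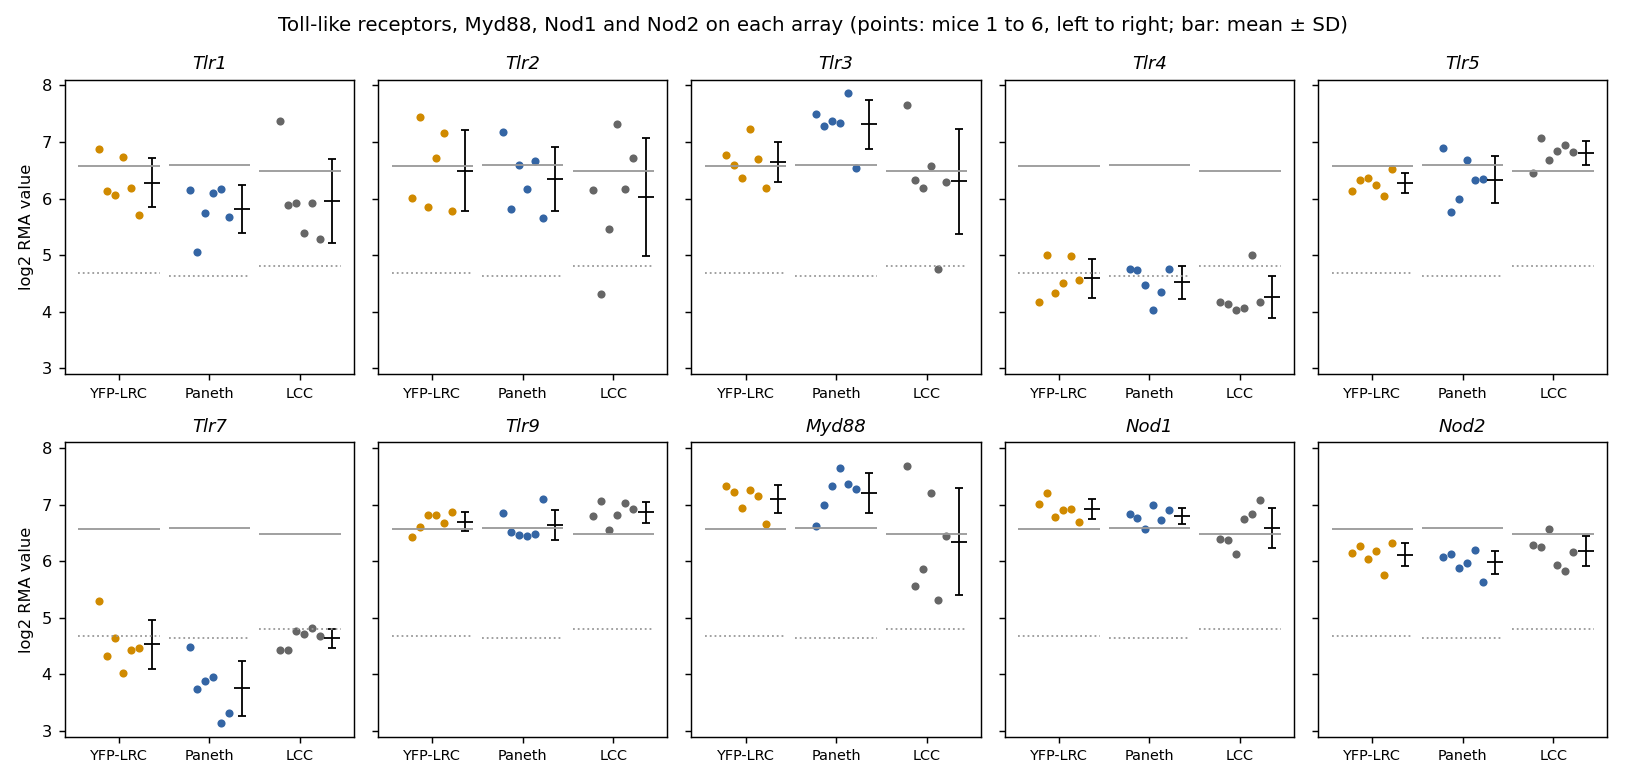
Log2 RMA value (y axis) of each member on every array, with YFP-LRC, Paneth and LCC from left to right, mice 1 to 6 as points and the mean ± SD as a bar. Solid grey lines are the mean over arrays of the median gene value, and dotted grey lines that of the median olfactory receptor gene. Tlr4 lies near the dotted line in the 3 populations, as Tlr7 does in YFP-LRC and LCC, the Paneth points of Tlr7 (3.13 to 4.49) all lie below it, and the LCC points of Tlr1, Tlr2, Tlr3 and Myd88 spread over more than 2 log2 units.

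LCC arrays stood apart from the others, and that touches each comparison with LCC. No RNA quality value was used, so lower array quality and a different mix of cells cannot be told apart here. Correlated with each of the remaining arrays in turn, an array had a median r of 0.916 to 0.950 for YFP-LRC, 0.929 to 0.947 for Paneth and 0.825 to 0.938 for LCC, where mice 1 and 4 were highest. The median gene value was 6.54 to 6.60 on YFP-LRC arrays, 6.53 to 6.65 on Paneth arrays and 6.40 to 6.57 on LCC arrays. The median of 888 olfactory receptor genes, taken as genes with no known role in gut epithelium, ran the other way. It was 4.55 to 4.79 in YFP-LRC, 4.51 to 4.77 in Paneth and 4.65 to 4.97 in LCC. Of these 888 genes, 1 was called higher and 32 lower in Paneth than in LCC, with a median difference of -0.19. In YFP-LRC against LCC, 0 of them were called higher and 13 lower, with a median difference of -0.12. Paneth cell markers were present in all 3 populations, with all 9 above the top decile boundary of the olfactory receptor genes in each, and 7 of 9 were called higher in Paneth than in LCC. Ang4, an antimicrobial ribonuclease of Paneth cells, lay 3.45 above the array median in YFP-LRC, 5.47 in Paneth and 2.81 in LCC. Lyz1, the Paneth cell lysozyme, lay 6.55, 6.84 and 6.61 above it, and was not called in any comparison (adjusted p of 0.072 or more), nor was the defensin Defa24 (5.78, 6.10 and 6.07). Lgr5, a crypt base stem cell marker, lay 1.99 above the array median in YFP-LRC, 2.64 in Paneth and 0.48 in LCC. The Paneth sort also had 6 of 7 measured tuft cell markers called higher than LCC. Of 9 enteroendocrine cell markers, 1 was called higher and 4 lower in Paneth than in LCC, and 4 higher in YFP-LRC than in Paneth. The 16 macrophage and dendritic cell markers averaged between -0.55 and -0.29 log2 units from the array median in YFP-LRC, -0.53 and -0.25 in Paneth and -0.26 and -0.02 in LCC. The 8 B and plasma cell markers averaged between -0.92 and -0.70, -1.01 and -0.56, and -0.56 and -0.06 in the same order. Of these, 7, 5 and 7 macrophage and dendritic cell markers and 2, 2 and 3 B and plasma cell markers lay above the top decile boundary of the olfactory receptor genes in YFP-LRC, Paneth and LCC. The 8 T cell markers averaged between -0.93 and -0.55, -1.12 and -0.67, and -0.69 and -0.31, with 1, 0 and 4 above that boundary. Hbb-b1, a red blood cell marker, lay at -2.02, -2.38 and 0.42, and was called lower in YFP-LRC and Paneth than in LCC. The other red blood cell marker measured, Alas2, was not called. Csf1r, Adgre1 and Ms4a1 were below the array median in each population (-0.46 to -2.37), while the B cell factor Pax5 was above it (0.0076 in YFP-LRC, 0.048 in Paneth and 0.46 in LCC), as was the macrophage marker Cd68 (0.32, 0.42 and 0.24). Tyrobp, a myeloid adaptor, lay at -0.12 in YFP-LRC, -0.26 in Paneth and 0.87 in LCC. The part of array quality and of other cells in the differences below was not tested.

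A level on these arrays is the median log2 value over a gene's probe sets, and it is given here against the median gene of the same array. Probe sets respond unequally, so the order of genes by level is only a description. Over the 18 arrays, Myd88 (0.33), Nod1 (0.22), Tlr3 (0.20) and Tlr9 (0.19) averaged above the array median. Tlr5 (-0.08), Tlr2 (-0.26), Nod2 (-0.46) and Tlr1 (-0.53) averaged below it. Tlr7 (-2.24) and Tlr4 (-2.09) were far below it, near the median olfactory receptor gene (-1.85). In all, 5 of the 10 members were above the top decile boundary of the olfactory receptor genes (-0.21): Myd88, Nod1, Tlr3, Tlr9 and Tlr5. The median of all genes on this scale (0.015) was above that boundary as well, so 5 of 10 is no more than the share of all genes.

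Among the endosomal receptors, Tlr3 ran from 6.54 to 7.86 with a median of 7.35 on Paneth arrays, against 4.76 to 7.65 with a median of 6.31 on LCC arrays. The Paneth arrays of mice 1 to 5 were all above 7.2, and the LCC array of mouse 1 was the only LCC array above 7, so the groups overlapped through LCC 1 and Paneth 6. The difference is 2.02-fold (95% interval 1.26 to 3.23), and Paneth was higher in 5 of 6 mice. The call ended in 12 of the 18 fits that left out 1 array, namely YFP-LRC 1, 2 or 5, LCC 2, 3, 5 or 6, or Paneth 1, 2, 3, 4 or 5, with adjusted p up to 0.0983. Without LCC 5, the lowest array, the difference was 0.70 (adjusted p = 0.09). The call also ended after a second quantile normalization (0.91, adjusted p = 0.0737), with each array centred on its median (0.90, 0.0577), with only the 2 populations in the fit (0.0869) and without mouse 6 (1.17, 0.0511). With no LCC arrays but 1 and 4 the difference was 0.20 (adjusted p = 0.886). YFP-LRC arrays ran from 6.19 to 7.23 with a median of 6.65, between the other populations. YFP-LRC differed from Paneth by -0.67 ± 0.33 (adjusted p = 0.913), lower in 6 of 6 mice, and from LCC by 0.34 ± 0.33 (adjusted p = 0.55). Neither neighbour in the order Paneth, YFP-LRC, LCC therefore passed the test.

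Tlr3 and Myd88 were the pair of members most alike over the 18 arrays (Pearson's r = 0.75, a description over arrays that share mice and quality). Their promoters are printed to show what is written upstream of that pair, 250 bases before to 50 after the start in RefSeq's GRCm38.p6 table, 5′ to 3′ on the gene's strand. The Tlr3 promoter is chr8:45410331-45410630 on the minus strand, and the Myd88 promoter is chr9:119339969-119340268 on the minus strand. Capitals mark matches to 3 motifs searched on both strands: the ISRE bound by interferon regulatory factors (GAAA, any 2 bases, GAAA), NF-kB (GGGA, any 2 bases, TTCC) and AP-1 (TGANTCA).
Tlr3: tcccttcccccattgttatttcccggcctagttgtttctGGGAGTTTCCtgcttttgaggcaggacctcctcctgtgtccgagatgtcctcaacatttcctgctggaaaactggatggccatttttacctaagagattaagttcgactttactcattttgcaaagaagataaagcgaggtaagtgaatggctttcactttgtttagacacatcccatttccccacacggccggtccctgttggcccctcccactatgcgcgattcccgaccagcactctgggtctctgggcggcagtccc
Myd88: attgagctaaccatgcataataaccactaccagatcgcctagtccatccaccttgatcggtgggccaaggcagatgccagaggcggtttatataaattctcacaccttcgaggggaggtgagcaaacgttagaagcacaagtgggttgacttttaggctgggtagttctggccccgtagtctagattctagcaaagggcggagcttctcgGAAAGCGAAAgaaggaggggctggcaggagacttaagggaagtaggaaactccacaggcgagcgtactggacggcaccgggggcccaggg
The Tlr3 window holds 1 NF-kB match that begins 211 bases before the start site, and the Myd88 window holds 1 ISRE match that begins 40 bases before it. Of 32851 mouse promoters in the table, 1.47% hold the NF-kB letters, 3.44% the ISRE letters and 7.81% the AP-1 letters. Promoters were found for 8 of the 10 members, all but Tlr4 and Tlr7. The only other match among them was an AP-1 match in Tlr9, which begins 58 bases before its start site. A match of letters is a description and not a binding site.

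Tlr7 ran from 3.13 to 4.49 with a median of 3.82 on Paneth arrays, against 4.43 to 4.81 with a median of 4.70 on LCC arrays. Paneth 1 was the only Paneth array that reached the LCC range, and Tlr7 was lower in Paneth in 5 of 6 mice. The fold of Paneth over LCC was 0.541 (95% interval 0.397 to 0.736). The call held without any 1 array (adjusted p up to 0.0281), but not with mouse 6 left out (0.0501) or with LCC 1 and 4 alone (0.311). YFP-LRC arrays ran from 4.03 to 5.30 with a median of 4.45. YFP-LRC was higher than Paneth in 6 of 6 mice, by 0.78 ± 0.21, with an unadjusted p of 0.00161 and an adjusted p of 0.215, so it was not called. Each Paneth array had Tlr7 below its own median olfactory receptor gene (4.51 to 4.77). Those 888 genes had a median difference of -0.19 between Paneth and LCC. Tlr7 has 4 probe sets. The dimmest 3 differed by -1.49, -0.55 and -0.38 between Paneth and LCC, and the brightest (6.69 in Paneth and 6.33 in LCC) by 0.36. The call of the gene value thus rests on its dim probe sets.

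Tlr9, the receptor for unmethylated DNA, varied least of all members, with a standard deviation of 0.22 over 18 arrays. It averaged 6.70 ± 0.17 in YFP-LRC, 6.65 ± 0.27 in Paneth and 6.86 ± 0.19 in LCC (SD, n = 6 each). Its largest difference was -0.22 ± 0.14 between Paneth and LCC (adjusted p = 0.298). The interval of that difference was -0.51 to 0.07, or 0.704 to 1.05 fold.

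Among the surface receptors, Tlr5, the flagellin receptor, came nearest to a call. It ran from 6.05 to 6.53 with a median of 6.28 in YFP-LRC, from 5.77 to 6.90 with a median of 6.33 in Paneth, and from 6.45 to 7.06 with a median of 6.83 in LCC. LCC held the highest levels, and YFP-LRC was below LCC in 6 of 6 mice. The YFP-LRC difference from LCC was -0.53 ± 0.17 (adjusted p = 0.0642) and the Paneth difference from LCC -0.47 ± 0.17 (adjusted p = 0.0729). The first passed the threshold without LCC 1 (0.0308), Paneth 1 (0.0465) or Paneth 2 (0.0493), and the second without LCC 1 (0.0383) or Paneth 1 (0.0228). After each array was centred on its median, both passed, at 0.0417 and 0.0339, and after a second quantile normalization at 0.0406 and 0.0358. Other alternatives weakened them. Over all alternatives, the first difference ran from -0.68 to -0.16, with adjusted p up to 0.732. The second ran from -0.61 to -0.17, with adjusted p up to 0.709. YFP-LRC and Paneth differed by -0.06 ± 0.17 (interval -0.42 to 0.29). Tlr5 has 3 probe sets, so its value is mostly 1 of them, and 1 lies between 2.59 and 2.92 in each population. That dim probe set differed from LCC by 0.33 in YFP-LRC and 0.22 in Paneth, the opposite sign.

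Tlr1 and Tlr2, which pair to read bacterial lipoproteins, spread more widely among the arrays of a population than among the population means. Tlr1 averaged 6.28 ± 0.44 in YFP-LRC, 5.82 ± 0.43 in Paneth and 5.96 ± 0.75 in LCC. YFP-LRC was above Paneth in 6 of 6 mice, by 0.47 ± 0.29 (adjusted p = 0.985). Tlr2 averaged 6.49 ± 0.71, 6.35 ± 0.57 and 6.02 ± 1.04 in the same order, and its LCC arrays ran from 4.32 to 7.32. None of its 3 differences exceeded 0.47, with a standard error of 0.41 each. For Tlr2, intervals as wide as -0.39 to 1.33 (YFP-LRC against LCC) include both no difference and a 2-fold one. Tlr4, the lipopolysaccharide receptor, averaged 4.59 ± 0.34, 4.52 ± 0.29 and 4.26 ± 0.37, near the median olfactory receptor gene. Its gene difference of Paneth from LCC was 0.26 ± 0.19 (adjusted p = 0.371). Its brightest probe set (7.34 in Paneth and 7.92 in LCC) differed by -0.58, the opposite sign, and a dim one (4.77 in Paneth and 3.48 in LCC) by 1.28 (adjusted p = 0.0498). With that brightest probe set alone, the fit over probe sets above the median gave -0.58 (adjusted p = 0.0344). The direction of Tlr4 between Paneth and LCC therefore depends on the probe sets used.

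Myd88, the adaptor that most of these receptors share, averaged 7.09 ± 0.25 in YFP-LRC, 7.20 ± 0.35 in Paneth and 6.34 ± 0.95 in LCC. Its YFP-LRC arrays ran from 6.67 to 7.33 and its Paneth arrays from 6.62 to 7.64, while LCC arrays ran from 5.31 to 7.69. The LCC arrays of mice 2, 3 and 5 were below 6, that of mouse 4 (7.21) lay inside the range of the other populations, and that of mouse 1 (7.69) above it. The differences were 0.75 ± 0.32 for YFP-LRC against LCC (adjusted p = 0.146) and 0.86 ± 0.32 for Paneth against LCC (adjusted p = 0.0723), each in the same direction in 5 of 6 mice. Paneth against LCC was called without LCC 1 (0.00695) or LCC 4 (0.0285), with the mean over probe sets (0.0156), with only probe sets above the median (0.031) and with array weights (0.0426), and YFP-LRC against LCC without LCC 1 (0.0188). With no LCC arrays but 1 and 4, the 2 differences were -0.36 and -0.25. YFP-LRC and Paneth differed by -0.11 ± 0.32 (interval -0.77 to 0.55).

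Nod1 averaged 6.92 ± 0.18 in YFP-LRC, 6.80 ± 0.15 in Paneth and 6.59 ± 0.35 in LCC. Its largest difference was 0.33 ± 0.15 between YFP-LRC and LCC (adjusted p = 0.187), higher in 5 of 6 mice. Nod2 was nearly level. It ran from 5.75 to 6.32 with a median of 6.16 in YFP-LRC, from 5.63 to 6.20 with a median of 6.02 in Paneth and from 5.83 to 6.57 with a median of 6.21 in LCC. The 3 ranges overlap over most of their length. YFP-LRC differed from LCC by -0.06 ± 0.15 (adjusted p = 0.848) and from Paneth by 0.13 ± 0.15 (adjusted p = 0.994), and Paneth differed from LCC by -0.19 ± 0.15 (adjusted p = 0.384). The 95% interval of Paneth over LCC was 0.710 to 1.08 fold, and that of YFP-LRC over Paneth 0.889 to 1.35 fold. These are intervals of the array signal, and with Nod2 under the top decile boundary of the olfactory receptor genes they do not bound the fold of its RNA. Of its 12 probe sets, 3 were above 0 in Paneth against LCC and 0 were called in any comparison. Ripk2, the kinase that both Nod receptors use, averaged 5.40 ± 0.57 in YFP-LRC, 5.49 ± 0.39 in Paneth and 5.38 ± 0.39 in LCC, and was not called. Ripk2 too lay under that boundary, at -1.18, -1.10 and -1.10 against the array median, so a change of its RNA could be missed.

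**Figure D2:**
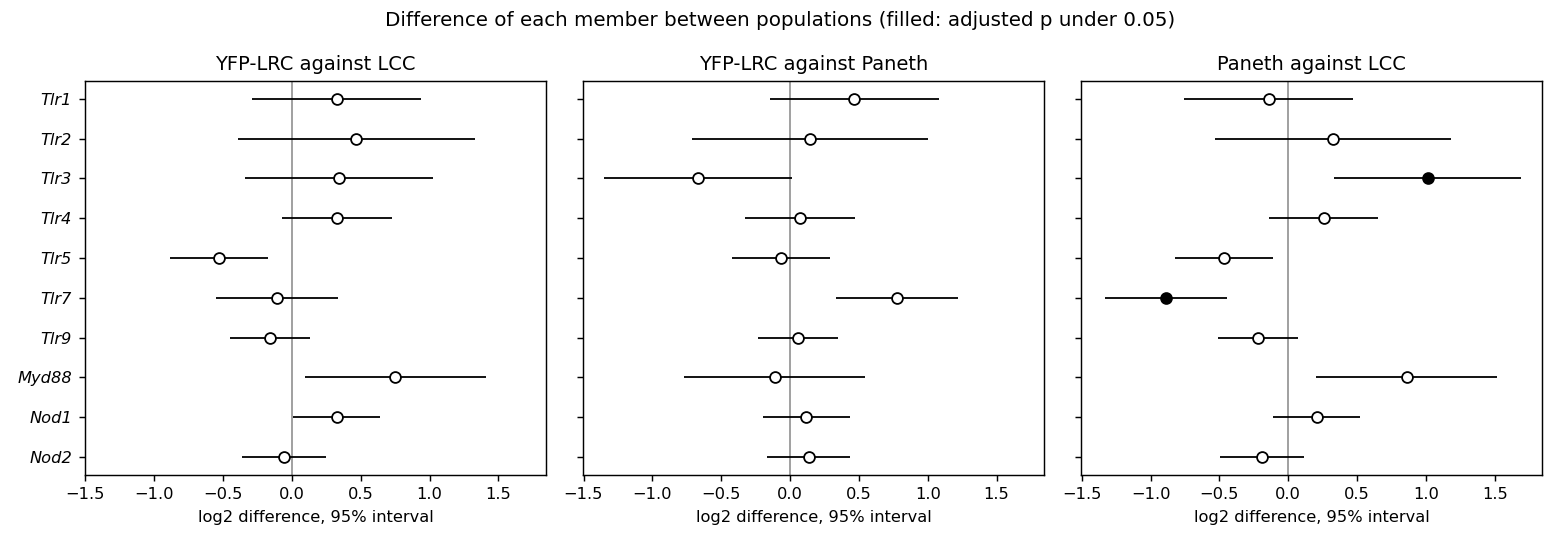
Log2 difference of each member (x axis) in the 3 comparisons, with its 95% interval from limma as a line and filled points at an adjusted p under 0.05. The filled points are Tlr3 (1.01) and Tlr7 (-0.89) in Paneth against LCC, and all 3 intervals of Nod2 include 0.

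The exon arrays carry 3 to 18 probe sets per member, and a limma fit over all 209279 probe sets, made after the gene values were seen, showed where a gene value came from. In Paneth against LCC, 4.9% of all probe sets were called higher and 1.45% lower. Of the 18 Tlr3 probe sets, 4 were called higher, 0 lower, and 14 were above 0, with differences from -0.49 to 2.12. The called ones averaged 7.30 to 8.77 in Paneth and 5.18 to 7.50 in LCC. Of the 7 Myd88 probe sets, 1 was called higher, and it differed far more than the gene value, by 2.80 ± 0.49 (adjusted p = 0.00362; 9.10 in Paneth and 6.30 in LCC). In YFP-LRC against LCC, where 2.13% of probe sets were called higher and 0.503% lower, the same Myd88 probe set differed by 2.12 ± 0.49 (adjusted p = 0.0297). One of 18 Nod1 probe sets was called higher in both comparisons, by 1.69 ± 0.37 in YFP-LRC against LCC (6.98 in YFP-LRC and 5.29 in LCC) and by 1.48 ± 0.37 in Paneth against LCC. In YFP-LRC against Paneth, where 0.0129% of probe sets were called higher and 0.0354% lower, 0 probe sets of the 10 members were called.

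**Figure D3:**
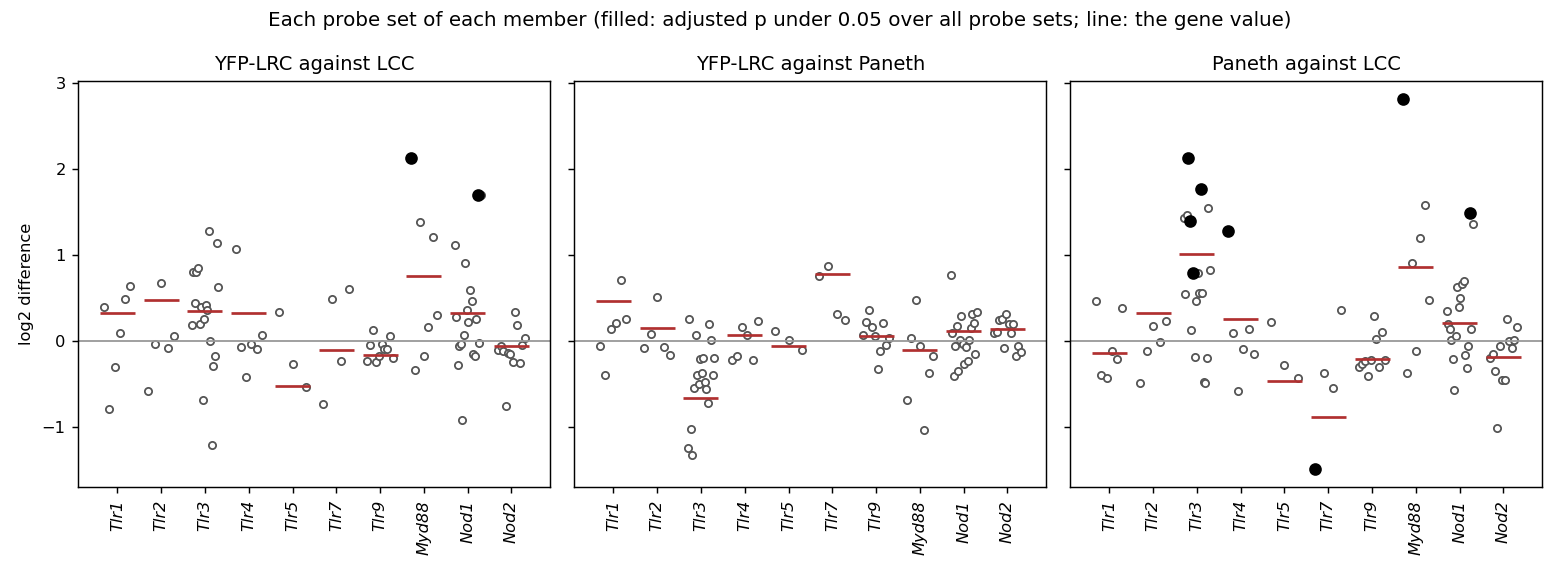
Log2 difference (y axis) of each probe set of each member in the 3 comparisons, filled at an adjusted p under 0.05 over all probe sets, with the gene value as a red line. The Myd88 probe set at 2.80 and the 4 filled Tlr3 probe sets are in Paneth against LCC, and no point is filled in YFP-LRC against Paneth.

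The genes around the members were read from a list of 116 other pattern receptors, coreceptors, trafficking factors, adaptors, inhibitors and targets, of which 103 were measured. In Paneth against LCC, 20 of the 103 were called higher, 3 lower and 80 were not called, and the median was 0.15 beside 0.03 for all genes. The share called higher, 20 of 103, stands beside 12% of all genes, which include genes of low level. When only genes above the median were fitted, 19 of 62 pathway genes and 2023 of 8179 genes were called in either direction. Among the receptors, the RNA sensors Ddx58 and Ifih1, which detect viral RNA in the cytosol, were called higher. Tlr3 was called higher too, a call lost in 12 of the fits without 1 array. Tlr7, also an RNA receptor, was called lower (-0.89), at a level near or below the median olfactory receptor gene. Ifih1 averaged 7.71 ± 0.09 in Paneth and 6.56 ± 0.82 in LCC, a difference of 1.15 ± 0.27 (adjusted p = 0.00893), higher in 6 of 6 mice. Ddx58 averaged 7.29 ± 0.23 in Paneth and 6.32 ± 0.44 in LCC, with a difference of 0.97 ± 0.20 (adjusted p = 0.00445), higher in 6 of 6 mice. Naip2, an inflammasome sensor of the NAIP family, differed by 0.72 ± 0.17 (adjusted p = 0.00838). These 3 kept the call without any 1 array. Irf7, an interferon regulatory factor, was higher by 0.78 ± 0.21 (adjusted p = 0.0168), and Ly96, the partner of Tlr4, by 1.32 ± 0.38 (adjusted p = 0.0253), lost without LCC 3 or Paneth 1 or 6 (up to 0.0626). Both were named after their values were seen. Ly96 lay at -0.30 in Paneth and -1.51 in LCC against the array median. Both levels are under the top decile boundary of the olfactory receptor genes (-0.21), so its difference does not bound the fold of its RNA. The remaining Toll-like receptors, Tlr6, Tlr8, Tlr11, Tlr12 and Tlr13, averaged -2.26 to -0.12 against the array median, and 0 of these 5 were called in any comparison.

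Beyond the receptors, Pglyrp1, which encodes a soluble antibacterial protein that binds peptidoglycan, had a higher RNA signal in Paneth cells than in either other population. It ran from 9.47 to 10.60 in Paneth, against 8.16 to 8.96 in LCC, without overlap, as 3.58% of all genes did in that direction. The difference from LCC was 1.30 ± 0.22 (adjusted p = 0.00108). In YFP-LRC, with values from 8.17 to 9.27, Pglyrp1 fell by 1.21 ± 0.22 relative to Paneth (adjusted p = 0.013). Pparg, a nuclear receptor that restrains NF-kB, differed by 1.66 ± 0.22 between Paneth and LCC (adjusted p = 9.2e-05) and by -1.14 ± 0.22 between YFP-LRC and Paneth (adjusted p = 0.0183), the second lost without YFP-LRC 4, Paneth 5 or Paneth 6 (up to 0.0648). Pglyrp1 and Pparg were the only 2 of 103 genes called between YFP-LRC and Paneth. Lman1, a cargo receptor of the secretory pathway (1.58 ± 0.23, adjusted p = 0.000239), Lgmn, an endosomal protease that processes Tlr9 (1.66 ± 0.27, adjusted p = 0.000555), the NF-kB subunit Rela (0.59 ± 0.14, adjusted p = 0.0107) and the kinase Chuk (0.87 ± 0.22, adjusted p = 0.0124) were also higher in Paneth than in LCC. With only probe sets above the median, the Lgmn difference was 0.79 (adjusted p = 0.0572). With no LCC arrays but 1 and 4, 3 of the 103 genes were called in Paneth against LCC: Pparg (adjusted p = 0.0189), Lgmn (0.039) and Pglyrp1 (0.0422). The Paneth arrays behind these genes also had 7 of 9 Paneth cell and 6 of 7 tuft cell markers called higher than LCC.

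In YFP-LRC against LCC, 6 of the 103 genes were called higher, 3 lower and 94 were not called, and the median was 0.17 beside 0.04 for all genes. Over all genes 6.33% were called higher and 0.917% lower, so 6 of 103 higher is no more than the background share. Ddx58 was again higher, with 7.31 ± 0.39 in YFP-LRC and 6.32 ± 0.44 in LCC (0.99 ± 0.20, adjusted p = 0.0101). Rela was higher by 0.59 ± 0.14 (adjusted p = 0.0212), lost without YFP-LRC 4 (0.0556), and the NF-kB precursor Nfkb1 by 0.90 ± 0.23 (adjusted p = 0.0243), lost without YFP-LRC 1, 4 or 5 or LCC 5 or 6 (up to 0.0593). Naip2 was higher by 0.66 ± 0.17 (adjusted p = 0.0256), lost without YFP-LRC 1 or LCC 6 (up to 0.0632). The inhibitor Tnip1 (0.44) and the NF-kB cofactor Nfkbiz (0.68) were higher and the kinase Irak2 (-0.54) lower. Each of these calls ended when any 1 of several arrays was left out. That of Tnip1 ended without YFP-LRC 2, 3, 4 or 5 or LCC 2, 3, 5 or 6 (up to 0.0876). That of Nfkbiz ended without YFP-LRC 3, 4 or 5 or LCC 3, 5 or 6 (up to 0.0803). That of Irak2 ended without YFP-LRC 1, 2, 4, 5 or 6, LCC 2, 5 or 6 or Paneth 3 or 4 (up to 0.0974). The inflammatory targets Il1b, a cytokine, and Cxcl2, a neutrophil chemokine, went the other way. Il1b averaged 6.19 ± 0.15 in YFP-LRC and 7.12 ± 0.56 in LCC, and the YFP-LRC arrays (6.02 to 6.39) lay below all LCC arrays (6.61 to 8.13), as 0.373% of all genes did. Cxcl2 averaged 5.95 ± 0.40 in YFP-LRC and 7.20 ± 0.60 in LCC (-1.25 ± 0.25, adjusted p = 0.00943). Both were lower in Paneth than in LCC as well, with differences of -1.03 ± 0.22 for Il1b (adjusted p = 0.0048) and -0.94 ± 0.25 for Cxcl2 (adjusted p = 0.0186), in comparisons that share the LCC arrays. In Paneth against LCC, 2 of the 16 macrophage and dendritic cell markers, Tyrobp and Itgax, were called lower. So were 1 of 8 T cell and 1 of 8 B and plasma cell markers, with 0 higher in these lists. Of neutrophil and mast cell markers, 1 of 8, Kit, was called higher and 0 lower. Without any 1 array, the calls of Ddx58, Il1b and Cxcl2 held. The count of 9 called genes became 20 without LCC 1, 4 without YFP-LRC 4 or LCC 6, and 5 without YFP-LRC 5 or LCC 5. Tyrobp was also lower in YFP-LRC than in LCC (adjusted p = 0.0251), the only 1 of the 16 macrophage and dendritic cell markers called there. Epithelial markers differed in the same comparison, with 5 of 9 Paneth cell, 5 of 6 crypt base stem cell and 2 of 6 goblet cell markers called higher in YFP-LRC than in LCC. Of general epithelial markers, 2 of 7 were called higher. Of enterocyte markers, 1 of 5 was called lower, while 0 of 9 enteroendocrine and 0 of 7 tuft cell markers were called. The part of these cell types in the pathway differences was not tested.

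**Figure D4:**
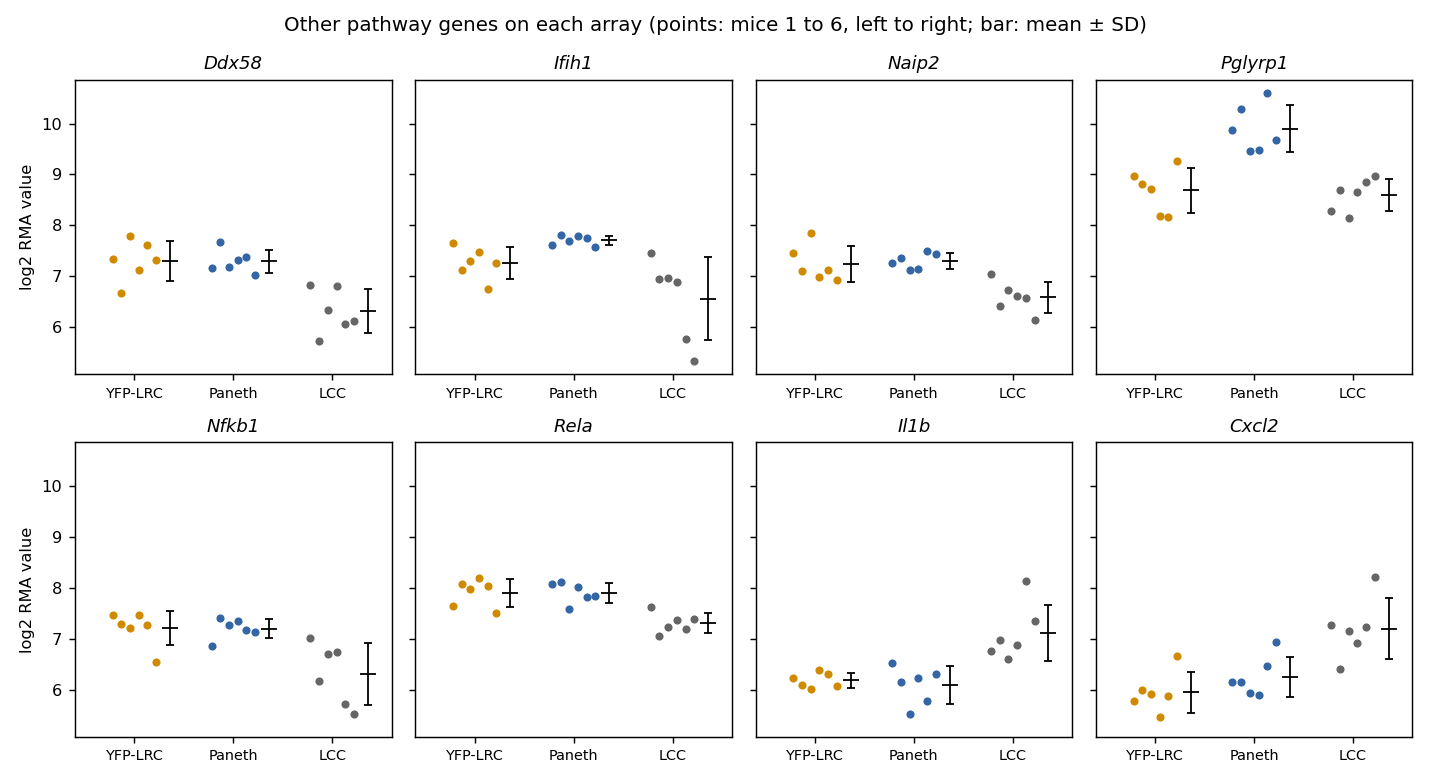
Log2 RMA value (y axis) of 8 other pathway genes on every array, with YFP-LRC, Paneth and LCC from left to right, mice as points and the mean ± SD as a bar. Pglyrp1 stands at 9.47 to 10.60 in Paneth, above the other populations, while Il1b and Cxcl2 are highest in LCC.

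The genes most like a member were sought for Tlr7 and Tlr5, the 2 members with the smallest p in limma's test over the 3 populations (adjusted p = 0.0169 and 0.075). Over 18 arrays and 15206 other genes with at least 3 probe sets, Tlr7 was most like Krtap5-2 (Pearson's r = 0.85), Nms (0.79), Ddr2 (0.79), 4932415M13Rik (0.79) and Wrnip1 (0.78). Tlr5 was most like Scn7a (0.82), Adamts2 (0.82), Nfkbie (0.82), Robo4 (0.81) and Msx3 (0.80). Of all these, only Nfkbie is on the pathway list. Against the array median it lay at -0.53 in YFP-LRC, -0.56 in Paneth and -0.08 in LCC. Points of a correlation share mice and array quality.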

How the data were processed

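Per the labels' protocols, RNA of each sorted population was amplified from 8 ng with a NuGEN whole-transcript kit, and the arrays were Affymetrix Mouse Exon 1.0 ST. The values are log2 signals the authors deposited. Per the file headers, they come from Affymetrix Power Tools 1.12.0 (background correction, quantile normalization of the 18 arrays and median polish, RMA) for core probe sets of mm9. The 2 deposited tables hold the same values for 229581 probe sets. From these, 209279 probe sets with 1 gene symbol gave 16358 genes, each the median over its probe sets. Symbols were updated through RefSeq's GRCm38.p6 gene table. Populations were compared with limma 3.58.1 in R 4.3.3, with 1 mean per population over 18 arrays and Benjamini-Hochberg adjustment over all genes. Genes were called at an adjusted p under 0.05, and the code was tested on simulated data. No filter on low values was applied.

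The 3 populations come from the same mice, per the design text, so same-numbered arrays are paired. Deviations of same-numbered arrays from their population means correlated between -0.11 and 0.41. The mouse as a replicate block was an alternative, beside other normalizations, probe set summaries, filters, array weights and leaving out arrays. All 10 members are named. Of the pathway list, called genes are named, at most 10 per comparison by adjusted p, and others where stated. Members, lists and the naming rule were chosen with earlier results of these data known. No scan date or RNA quality value was used, so batches were not tested, and the number of arrays, 6 per population, limits the precision.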

Additional observations from a re-analysis of the deposited data

Results flagged for a closer look

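In a group of 6 arrays, a single array was set apart when its gap to the nearest other exceeded Dixon's 95% critical value for the share of the range, and 2 of the 30 sets of a member and a population had such an array, where chance gives about 1 in 20. Tlr1 was at 7.37 on the LCC array of mouse 1, with the other LCC arrays between 5.28 and 5.91. Tlr4 was at 5.004 on the LCC array of mouse 5, with the others between 4.02 and 4.18.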

How the results depend on the processing

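With the mouse as a replicate block, 2 members were called in Paneth against LCC and 0 in each YFP-LRC comparison, and no member's call changed (Tlr3 adjusted p = 0.0382, Tlr7 0.0105). The 2 called members in Paneth against LCC became 1 among genes above the median, where Tlr7 is not tested, 1 with only the 2 populations compared, and 0 with LCC 1 and 4 alone or, chosen after seeing the data, without mouse 6. After a second quantile normalization or centring the count stayed at 2 but the genes changed, with Tlr3 lost (adjusted p = 0.0737 and 0.0577) and Tlr5 gained (0.0358 and 0.0339). In YFP-LRC against LCC the 0 became 1 after a second quantile normalization or centring. Without 1 array, members called ranged from 1 to 4 in Paneth against LCC, 0 to 2 in YFP-LRC against LCC and 0 to 0 in YFP-LRC against Paneth. The 23 pathway genes of Paneth against LCC became 15 (second quantile normalization), 14 (only the 2 populations), 3 (LCC 1 and 4 alone) and 14 (without mouse 6), and ranged from 16 to 30 without 1 array. The 9 of YFP-LRC against LCC became 14 (mean over probe sets), 3 (only the 2 populations), 0 (LCC 1 and 4 alone, 0 of 103) and 4 (without mouse 6), and ranged from 4 to 20. The 2 of YFP-LRC against Paneth became 1 after a second quantile normalization, with the mean over probe sets and without mouse 6, and ranged from 1 to 2. All called genes numbered 1185 in YFP-LRC against LCC, and 614 (second quantile normalization), 2128 (mean over probe sets), 415 (only the 2 populations), 4 (LCC 1 and 4 alone) and 629 (without mouse 6), with 516 to 2156 without 1 array. In YFP-LRC against Paneth they numbered 58, and 96 (mean over probe sets) and 106 (array weights), with 41 to 66. In Paneth against LCC they numbered 2372, and 3988 (mean over probe sets), 156 (LCC 1 and 4 alone) and 1332 (without mouse 6), with 1590 to 3274.

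Signs turned in 30 of the member results, of which 1 was called in the turned direction (Tlr4, below). With the mean over probe sets these were Tlr7 in YFP-LRC against LCC (0.028), Tlr4 (-0.029) and Tlr5 (0.0075) in YFP-LRC against Paneth, and Tlr2 in Paneth against LCC (-0.047). With only probe sets above the median they were Tlr2 (-0.31) and Tlr4 (-0.42) in YFP-LRC against LCC, Tlr2 (-0.0019), Tlr5 (0.010) and Nod1 (-0.24) in YFP-LRC against Paneth, and Tlr1 (0.42), Tlr2 (-0.31) and Tlr4 (-0.58, adjusted p = 0.0344) in Paneth against LCC. The pathway genes Tnip1 in YFP-LRC against LCC (-0.019) and Irak3 in Paneth against LCC (-0.041) turned there too. With LCC 1 and 4 alone they were Tlr1 (-0.093), Tlr2 (-0.24), Tlr3 (-0.47), Myd88 (-0.36) and Nod2 (0.0073) in YFP-LRC against LCC, and Tlr2 (-0.39) and Myd88 (-0.25) in Paneth against LCC. Without 1 array, values that crossed 0 ranged from -0.13 to 0.022 for Nod2 in YFP-LRC against LCC, from -0.28 to 0.14 for Tlr1 in Paneth against LCC, from -0.017 to 0.58 for Tlr2 in Paneth against LCC, from -0.046 to 0.31 for Tlr2 in YFP-LRC against Paneth, from -0.026 to 0.15 for Tlr4 in YFP-LRC against Paneth and from -0.18 to 0.049 for Tlr5 in YFP-LRC against Paneth. The cause of these changes was not tested.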
